A study of Oryctolagus cuniculus with 3 samples.

Results

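The probes described here were lower in the model aorta than in the control aorta and higher than control in the recovery aorta. A probe belonged to the set when, after values under a floor of 4.37 had been set to that floor, its log2 signal was lower by 1 or more in model than in control and higher by 0.3 or more in recovery than in control. Of 43603 gene probes on the array, 78 met both conditions. Probes matched to CXCL10, CCL19, CASP4 and HILPDA were left out by the rule, 1 for each gene, while no probe matched to HIF1A or HK2 met the conditions. This left 74 members. The members were thus chosen by both ratios to control, and their direction is a description and not a finding.

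The animals were male New Zealand white rabbits, 3 months old at purchase, and the tissue was the abdominal aorta. The control rabbit was uninjured and ate chow without added cholesterol or fat. The model rabbit ate chow with 1% cholesterol and 6% peanut oil for 4 weeks and had balloon injury of the aorta early in that period. The recovery rabbit went through the same diet and injury and then a further 4 weeks on chow without additions, with intake reduced by 20%, a phase that the labels describe as a normal diet. Each group had 4 rabbits, and 1 aorta per group, chosen with the help of pathology and intravascular ultrasound, was hybridised on a single-colour Agilent rabbit array. Each difference below is therefore between single aortas, with no spread between animals, no SD and no test. The 3 arrays came from 3 different animals, so no animal was followed over time.

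Balloon injury strips the endothelium, and with cholesterol feeding the wall forms a lipid-rich neointima built by smooth muscle cells and foamy macrophages. When the dietary cholesterol is withdrawn, part of such a lesion can shrink. Transcripts that are low in a growing lesion may stay low, come back to the level of an intact vessel or pass it, and the members are probes of the last kind.

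The deposited values are log2 signals that the authors had quantile-normalized, so each array has nearly the same distribution. The floor was the 40th percentile of all gene-probe values, and 28950 probes exceeded it on 1 array or more. Of these, 13.1% were lower in model than in control by 2-fold or more, and 0.269% had the members' pattern, left-out probes included. Among the 3784 lower probes the median ratio of recovery to control was -1.76 on the log2 scale. In recovery 143 of them were at or above control, and 65 of these were above it by less than 0.3. The mirrored pattern, higher by 1 or more in model and lower than control by 0.3 or more in recovery, was met by 102 probes.

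The members had a median control signal of 7.52, a median model signal of 5.49 and a median recovery signal of 9.09 on the log2 scale, where the median over all 28950 probes was 7.32 on each array. Their median ratio of model to control was -1.43 with the floor applied, against 0.02 over all probes, and their median ratio of recovery to control was 0.71, a 1.63-fold excess, against 0.04. In recovery 22 of the 74 were at least 2-fold above control, against 16.0% of all probes. The rule chose members by these same ratios, so their contrast with all probes is not a finding. By the rule's own arithmetic all 74 were at least 2-fold above model in recovery, against 7.05% of all probes. The overshoot was uneven, from 0.33 to 4.55 on the log2 scale. It was at least 4-fold in 17 members and under 1.5-fold in 33. The shortfall was at least 4-fold in 9 members, and the lowest unfloored ratio of model to control was -9.88.

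In the model array 16 members lay below the floor, a share of 21.6% (exact binomial 95% interval 12.9 to 32.7, which covers the number of probes only). The interval treats members as independent, although many have consecutive probe numbers and similar ratios, so it is likely too narrow. For those probes the fold of control over model is a lower bound. The corresponding share among all lower probes was 19.5%.

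The table gives probe identifiers without genes. A member took a gene name where it was the only probe whose ratios both equalled, within 0.006, those of a gene in the study's supplementary list of changed genes. Named in this way were 7 members, for FOS, MSI2, HAUS6, ACTR1B, PISD, MCFD2 and TAP1. For FOS, MSI2 and ACTR1B the density of nearby points gave at most 0.05 expected chance matches. The other 4 names are less certain on that scale, with 0.0504 for HAUS6, 0.0801 for PISD, 0.0954 for MCFD2 and 0.1161 for TAP1.

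A second reading of the names was added after the values had been seen. Probe numbers on the array come in runs of up to 5, and consecutive numbers of 1 run had closely similar ratios, with Pearson's r of 0.97 over 14309 pairs for model over control. Across the border between runs, r was 0.046 over 1579 pairs. These pairs share arrays and, within a run, probably a transcript, so r is given as a description. Matching the median ratios of a run in place of a single probe gave names to 19 of the 46 runs that hold a member, with at most 0.0909 expected chance matches each and 0.48 summed over them. One of these runs belongs to the left-out CXCL10 probe. The 7 names above were unchanged, and LDHA, PDK4, SFRP4, FGL2, B3GNT5, EZH2, DSCC1, SFMBT1, PEX3, GGCT and LOC100008880 were added. Names taken from runs are marked as such below.

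Among the members with a role in fuel use PDK4 had the largest overshoot. PDK4, a kinase that switches off pyruvate dehydrogenase and so spares glucose, was named from a run of 4 probes, A_04_P083897 to A_04_P083900, all of them members. Their control signals were 7.49, 6.95, 7.05 and 7.58, their model signals 5.82, 5.29, 5.46 and 5.68, and their recovery signals 10.11, 9.44, 9.59 and 9.92. All 4 gave the order model, control, recovery from low to high, which the rule requires of any member. Median ratios to control were -1.66 in model and 2.52 in recovery, a 5.73-fold excess.

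LDHA, the lactate dehydrogenase subunit that turns pyruvate into lactate, was named from a run of 5 probes, again all members. Control signals lay between 11.97 and 12.31, model signals between 10.39 and 10.91 and recovery signals between 12.69 and 13.11. The 5 probes differed little in their ratios of recovery to control, from 0.72 to 0.81. The median ratio of model to control was -1.44, and recovery exceeded control 1.71-fold.

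PISD, which makes phosphatidylethanolamine in mitochondria, had a single probe with 9.56 in control, 8.32 in model and 9.91 in recovery. Its recovery signal was 1.27-fold above control, near the lower limit of the rule. PEX3, needed to build peroxisome membranes, and GGCT, an enzyme of glutathione breakdown, were named from runs of 5 probes in which only 1 probe was a member. For the PEX3 run the median recovery ratio was 0.21 and for the GGCT run 0.19, both under the 0.3 of the rule, while the median model ratios were -1.10 and -1.05. These genes were lower in model and close to control in recovery by most of their probes.

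FOS, a subunit of the AP-1 transcription factor and the classic immediate early gene, had 1 probe, A_04_P029692. Its signal was 8.08 in control, 6.71 in model and 10.64 in recovery. Model was 2.58-fold below control, and recovery was 5.90-fold above control and 15.2-fold above model. The probe was the only one in its run.

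Among immune and secreted products, FGL2, a fibrinogen-like protein of macrophages and T cells with prothrombinase activity, was named from a run of 3 probes. Its 2 members went from 8.20 to 7.04 to 8.93 and from 9.73 to 8.29 to 10.13 in control, model and recovery. The third probe read 11.21, 9.79 and 11.23, so it was as low in model and level with control in recovery. TAP1, which carries peptides to MHC class I molecules, read 7.21 in control, 6.09 in model and 7.61 in recovery, an excess of 1.32-fold.

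SFRP4, a secreted Wnt antagonist, was named from a run of 2 probes, both members. They read 6.31 and 6.85 in control, 4.75 and 5.09 in model, and 7.08 and 7.53 in recovery. Both lay close to the floor in model, and the median recovery ratio was 0.72. MCFD2, which with LMAN1 exports coagulation factors V and VIII from the endoplasmic reticulum, was held by a run of 5 in which 4 were members. The member that carried the name by itself, A_04_P083794, read 8.56, 7.47 and 9.04. The remaining probe of that run missed the model threshold at -0.92 and had the highest recovery ratio of the 5, at 0.62.

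B3GNT5, a glycosyltransferase that starts lacto-series glycolipids, was named from a run of 3 with 1 member, which read 5.88, 4.39 and 6.82. The other B3GNT5 probes were below the floor in model and had recovery ratios of 1.00 and 0.75. They missed the rule only because their control signals, 5.24 and 5.37, lay less than 1 above the floor. All 3 probes had the same order of arrays.

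The 4 members with numbers next to the left-out CXCL10 probe, A_04_P034317 to A_04_P034320, belong to the run of that chemokine. They stayed in the set because the rule removes only matched probes. Their control signals lay between 5.78 and 6.94, their model signals between 4.20 and 5.26 and their recovery signals between 9.09 and 10.05. Recovery exceeded control by 7.19-fold to 9.95-fold. Without them the set holds 70 probes.

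A further group of names belongs to the nucleus, to RNA binding and to cell division. MSI2, an RNA-binding protein of the Musashi family, read 6.45 in control, 5.42 in model and 7.68 in recovery, 2.34-fold above control. EZH2, the methyltransferase of Polycomb complex PRC2 that marks histone H3, was named from a run of 2. Its member probe read 5.42, 4.31 and 6.0. The model value lay just under the floor, and with the floor applied the model ratio was -1.04. The other probe had a model ratio of -1.10 and a recovery ratio of 0.27. SFMBT1, a chromatin protein with MBT repeats, had 2 members in a run of 5, with a median recovery ratio of 0.32 and a median model ratio of -0.91. It sat at the edge of both thresholds.

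HAUS6, a subunit of the augmin complex that branches spindle microtubules, had 2 members in a run of 3. They read 6.66, 4.94 and 7.58, and 6.34, 5.16 and 7.11. The third HAUS6 probe read 6.11, 5.35 and 5.86, which is below control on both arrays, so the probes of this run disagree on the overshoot. DSCC1, part of the clamp loader for sister chromatid cohesion, had 1 member, with 6.23, 5.23 and 7.24. Its other probes had recovery ratios of 0.93 and 1.12 and model ratios of -0.68 and -0.83, short of the threshold.

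ACTR1B, an actin-related subunit of dynactin, had a control signal of 5.59, a model signal of 0.55 and a recovery signal of 5.97. The model signal was next to that of the array's negative control row, which read 0.44. Because the model value was under the floor, the fold is a bound, with control at least 2.33-fold above model.

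LOC100008880, annotated by gene ID as the secretoglobin SCGB1D1 in RefSeq mOryCun1.1, was named from a run of 5 with 1 member. The member, A_04_P002731, read 11.39 in control, 2.91 in model and 11.74 in recovery, so control was at least 130-fold above model. All 5 probes were below the floor in model, with signals from 1.04 to 2.91. In recovery they split, at 11.74, 9.36, 4.60, 4.59 and 10.97. The median ratio of recovery to control over the member's 4 mates was -2.77. Over the whole run that ratio went from -4.98 to 0.34, and the overshoot held for the member and, at 0.20, for 1 more probe.

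The largest overshoots belonged to probes without a gene name. A_04_P083227 read 7.19 in control, 6.08 in model and 11.75 in recovery, which is 23.5-fold above control and 50.6-fold above model. It had no other probe in its run. A run of 4 probes, A_04_P001251 to A_04_P001254, consisted of members only. Their control signals were 7.56, 8.76, 9.51 and 8.91, their model signals 5.80, 7.11, 7.85 and 7.19, and their recovery signals 11.30, 12.66, 13.25 and 12.67. The recovery ratios were nearly equal, from 3.74 to 3.89, so that the 4 probes gave an excess of 13.3-fold to 14.8-fold.

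A_04_P000852 read 9.25, 8.11 and 13.13. Its neighbour A_04_P000851 had a still higher recovery ratio of 4.11 and a model ratio of -0.97, which kept it out of the set. A_04_P004311 read 5.58, 3.06 and 8.99, with recovery 10.6-fold above control and the model value under the floor. In the A_04_P083227, A_04_P001251 and A_04_P000851 runs, where every value exceeded the floor, the excess in recovery was larger than the shortfall in model. These runs were picked for their large overshoot, so this relation is not a finding.

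At the other end stood members with a deep shortfall and a small overshoot, chosen for description after their values had been seen. The run A_04_P003551 to A_04_P003555 held 5 members. Control signals were 9.29, 9.74, 9.80, 9.89 and 10.34, model signals 0.51, 0.55, 0.48, 0.59 and 0.45, and recovery signals 9.78, 10.23, 10.31, 10.38 and 10.75. In model all 5 read like the negative control row, while in control and recovery they lay far above the floor, so that control was at least 30.2-fold to at least 62.3-fold above model. The recovery ratios, from 0.41 to 0.51, were close to the lower limit of the rule.

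The run A_04_P005161 to A_04_P005163 read 6.66, 7.02 and 6.11 in control, 3.84, 4.50 and 3.86 in model, and 7.57, 7.71 and 7.04 in recovery, all members. A_04_P101907 read 7.47, 3.35 and 7.94, and the other 3 probes of its run had model ratios of -3.83 to -3.98 and were level with control in recovery, between -0.15 and 0.02. The runs thus range from those whose probes share shortfall and overshoot to those that share the shortfall only.

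Other probes of the same run are a second measurement on the same arrays, and the rule did not require them to follow. Of the 74 members 58 had such mates and 16 had none. The median of the mates passed both thresholds for 38 of the 58, against 0.387% of the 20911 tested probes with mates. For 31 of the 38 the run held only members or left-out probes, so the same thresholds had picked the mates too, and nothing is read from this count. There were 51 mates that were neither members nor left out, and so had missed a threshold. Of these, 40 were below control in model and above it in recovery. The share of all probes with that order was not computed, and probes of a run have similar ratios. Nothing is read from this count either. Over the whole table the pooled SD between probes of 1 run, among probes that exceeded the floor on every array, was 0.19 on the model side and 0.20 on the recovery side, both as ratios to control. A recovery ratio near 0.3 is thus little larger than the spread between probes.

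All probes were members or left out in 9 of the 30 runs with 2 or more probes, and these 9 held 32 probes. In 17 runs only 1 probe was a member. For 5 members the mates' median in model was above -0.5. A_04_P072282 was the clearest, with 6.02, 2.95 and 8.92 against mates at 3.01, 2.97 and 3.20 and at 0.70, 0.53 and 0.62. A_04_P079986 read 6.0, 4.12 and 6.94, and its mates had recovery ratios of 0.86 to 1.61 but model ratios of -0.14 to 0.81. A_04_P063169 read 7.32, 6.30 and 9.08, and its mates shared the recovery ratio, at 1.79 to 1.92, with model ratios of -0.04 to -0.44. For these last cases the overshoot was shared within the run and the shortfall was not.

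The thresholds cut through a continuous field of values. Just inside the recovery threshold lay A_04_P095858 at 0.330, an SFMBT1 probe at 0.342 and the LOC100008880 member at 0.344, and just outside lay a GRB10 probe at 0.298 and an ETS1 probe at 0.296. Just inside the model threshold lay an MCFD2 probe at -1.001 and the DSCC1 member at -1.002, and just outside lay A_04_P028185 at -0.995.

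Members were placed in gene groups through the named runs, all of which come from a list the study chose on these same arrays. Of 2896 named runs 31.0% were lower in model by 2-fold or more and 0.552% had the members' pattern. Of 17 genes of glucose uptake, glycolysis and fuel switching with a named run, 11 were lower in model by 2-fold or more and 2, LDHA and PDK4, had the full pattern. The group's median was -1.44 for model and -0.38 for recovery, and in recovery 8 of the 17 were above control and 9 below it. The share of all named runs above control was not computed. By 2-fold or more, 4 of the 17 were above control in recovery, against 20.3% of named runs, and 5 were below it. PKM, a pyruvate kinase, was above control in model, at 0.77, and in recovery, at 1.60. The glucose transporter SLC2A3 stood 2.73 above control in recovery on the medians of its probes, with the model median under the floor. The aldolase ALDOC, at -5.87 in model and -7.08 in recovery, and the triose phosphate isomerase TPI1, at -2.13 and -1.69, stayed low. The enolases ENO1 and ENO2 had the same order of arrays as LDHA, with -0.82 and -0.65 in model and 0.65 and 0.81 in recovery.

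Of 4 immediate early genes with a named run only FOS was lower in model, and the other 3, JUN, ATF3 and NR4A3, were higher by 2-fold or more. Over all probes above the floor on 1 array or more, 3451 of 28950 were higher in model by 2-fold or more. The corresponding share of named runs was not computed. The ratios of model to control were 1.31 for JUN and 4.15 for ATF3. NR4A3 was below the floor in control, at 3.46, so its ratios are bounds, of at least 1.64 in model and at least 3.55 in recovery. FOS and NR4A3 were highest in recovery. Of 4 genes of the interferon response and antigen presentation all were lower in model, and only TAP1 was above control in recovery. The immunoproteasome subunits PSMB8 and PSMB9, which cut peptides for TAP1, stood at -1.84 and -0.66 there. IDO1, which breaks down tryptophan, was below the floor in recovery, so its ratio is a bound, at or below -2.28. The group medians were -1.73 and -1.25.

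Of 10 chemokine and cytokine genes with a named run 4 were lower in model and 2 had the pattern, the left-out CXCL10 and CCL19. Of 8 genes of soluble innate defence 4 were lower and FGL2 had the pattern. Of 9 hypoxia response genes 3 were lower, and LDHA and the left-out HILPDA had the pattern. SFRP4 was the member among 9 ligands, receptors and their modulators. ACVR1B, EDN2, ADORA2B, GPR176, NMUR2 and PDE4B on that list also had ratios in the study's list past both thresholds. The list is thus no independent gene family, and nothing is read from its count. A list of 9 genes of the nucleus, RNA binding and cell division was drawn up around members. Of these 9, 4 were lower, and EZH2, MSI2 and HAUS6 had the pattern. The list left out SFMBT1 and DSCC1, whose run medians in model, -0.91 and -0.83, missed the threshold. Nothing is read from this count. A run could meet the floored pattern only where its control median lay at least 1 above the floor. That held for 14 of the 17 genes of fuel use, 2 of the 4 immediate early genes and all 4 of antigen presentation. It held for 4 of the 10 chemokines and cytokines, 4 of the 8 of innate defence and 7 of the 9 of hypoxia. The same was true of 1 of the 9 ligands and receptors and 4 of the 9 of nucleus, RNA binding and cell division. None of 7 channels and transporters with a named run and 1 of 3 bone matrix genes reached that level, so these groups say nothing about the pattern.

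The 3 aortas also differed in marker genes of cell types. In bulk tissue, fewer cells of a type and less RNA per cell cannot be told apart. Runs were named for 3 of 5 smooth muscle, 3 of 6 adipocyte, 4 of 7 lymphocyte, 1 of 5 endothelial, 1 of 6 macrophage, 2 of 9 neutrophil, 1 of 5 fibroblast, 1 of 3 erythroid, 2 of 5 skeletal muscle and 4 of 6 neuronal and Schwann cell markers. Their values follow, as log2 ratios to control, and those with a value under the floor on 1 side are given as bounds. The smooth muscle markers MYH11 and ACTA2 were higher in model than in control by 4.43 and 3.57 and in recovery by 4.95 and 4.00, and LMOD1, below the floor in control, was higher by at least 4.85 and at least 4.41. The adipocyte marker FABP4 had ratios of -4.94 and -5.31 on its probe medians, LEP had -1.08 and -0.75, and ADIPOQ, below the floor in model and recovery, was at or below -6.48 in both. The 4 identified lymphocyte markers were below the floor in model and recovery, so their ratios are bounds, at or below -1.07 for CD3E, -1.11 for CD2, -3.85 for CD79B and -2.65 for LCK. The endothelial marker PECAM1 was at -2.53 and -1.90, and the macrophage marker MRC1 at -0.80 and -1.01.

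The fibroblast marker COL1A1 stood at -0.58 in model and -2.82 in recovery, and the erythroid marker ALAS2 at -4.09 and -6.54. The skeletal muscle markers CKM and TNNC2 were higher by 6.07 and 3.55 in model and by 4.17 and 3.72 in recovery. Of the neuronal and Schwann cell markers, SST was higher in model by 9.0, NPY by at least 7.66 and TH by 3.18, and S100B was lower, at -3.58. In recovery SST and NPY were below the floor, TH stood at 1.05 and S100B at -4.32. The neutrophil markers LCN2 and CAMP had the members' order of arrays as deposited, with ratios of -1.63 and 0.60 for LCN2 and -1.25 and 0.84 for CAMP. Both were below the floor in control and model, so they could not meet the rule, and only LCN2 exceeded the floor in recovery, at 4.62. The part of cell composition in the members' pattern was not tested.

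The 8 spiked-in control rows above the floor had a median ratio of -0.46 in model over control, ranging from -0.91 to -0.07, and of 0.07 in recovery over control. With the arrays shifted to level these rows, 35 of the 74 members remained, from 17 runs. All members of the PDK4, SFRP4, B3GNT5, ACTR1B and A_04_P001251 runs, the 5 of the A_04_P003551 run and the 4 beside CXCL10 remained, as did 2 of 5 LDHA members and 1 of 2 HAUS6 members. FOS, MSI2, TAP1, PISD, FGL2, EZH2, MCFD2 and A_04_P083227 did not, because their model ratio no longer reached -1. The shift of either array was smaller than the rule's threshold for it, so no member's ratio could change sign. Which scaling is nearer to the RNA content of the tissue was not tested.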

How the data were processed

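RNA from 1 abdominal aorta each of the control, model and recovery groups was labelled with Cy3 and hybridised on a single-colour Agilent array. Per the submitters' processing notes and the methods, images were read with Agilent Feature Extraction 10.7 and the authors applied quantile normalization in GeneSpring. The deposited values are log2 signals. How background was treated is not given in the sources used here. Each of the 3 value columns was used, and the detection calls of the arrays were not used here. The number of arrays limits the precision.

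Gene probes (43603) were separated from 58 control rows, and values below 4.37, the 40th percentile of gene-probe values, were set to that floor. Quantile normalization forces equal distributions, so a change in total RNA cannot be seen. Members were the probes at or below -1 (model minus control) and at or above 0.3 (recovery minus control). Names came from the study's list of 3715 rows, read only for symbols and the ratios that identify probes: the only probe within 0.006 of both ratios, with no other symbol matching it. Expected chance matches were the density of probes within 0.2 on both axes scaled to the tolerance. All named members are given, those with at most 0.05 first, and up to 10 unnamed probes with the largest overshoot are described by identifier. Runs of up to 5 numbers start 1 later beyond a number near 29200, chosen from the likeness of consecutive probes, and 3170 rows matched at least 1 run, 2928 of them exactly 1, where 324 chance matches were expected in sum. All 19 run names were found in RefSeq mOryCun1.1, used for names only. No sequences or coordinates of probes were used.

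The members and gene lists were chosen with earlier results of these data known. Alternatives changed the floor, scaling, thresholds, tolerance and neighbours. Counting and matching were tested on simulated data. Python 3.11.15, numpy 2.4.6, pandas 2.3.3 and scipy 1.17.1 were used.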

Additional observations from a re-analysis of the deposited data

How the results depend on the processing

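With 1 array per group no replicate could be left out. No paired analysis was possible because each group has 1 array and no result comes from a test. The number of members, 74 as reported, was 280 with no floor, 146 with the floor at the 20th percentile and 34 with it at the 60th. It was 77 with median scaling and 35 with spiked-in scaling. With model lower by 3-fold it was 29, with 1.5-fold 231, with recovery at least 1.5-fold above control 41, with 2-fold 22 and with recovery at or above control 139. The mirrored pattern, 102 probes, gave 315, 240, 28 and 420 for no floor, the lower floor, the higher floor and spiked-in scaling, and 35, 303, 47, 16 and 360 for these thresholds in the same order. Members made up 0.256% of tested probes, and 0.642%, 0.388%, 0.169% and 0.119% under no floor, the lower floor, the higher floor and spiked-in scaling. Their median overshoot, 0.71, was 0.49 with the higher floor and between 0.70 and 0.84 under the other floors and scalings. Named members were 7, and 1 at a tolerance of 0.003, 3 with at most 0.05 expected chance matches and 18 through runs, an alternative added after seeing the data. The share of neighbouring numbers with the pattern was 38.5% (57 of 148), 60.6% among numbers that differ by 1 and 65.1% within runs. Over all tested probes, left-out probes included, 0.269% had the pattern. The neighbours counted here had passed the members' own thresholds, so nothing is read from these shares. None of the 72 ratios of members with a name changed direction under either scaling. The shifts were smaller than the rule's thresholds, so no member's ratio could do so. Under spiked-in scaling 36 of the 72 moved by more than the spread between probes of a run. The cause of these changes was not tested beyond the construction of each alternative.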

Other observations

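The study's list held 65 genes whose listed ratios passed both of the members' thresholds, and 56 of them could be tied to 1 run of probes. Of these runs 13 held a member, 4 held a left-out probe and 1 was that of ETS1. The remaining 38 had a median control signal less than 1 above the floor of 4.37, so that no 2-fold shortfall could be measured. In 31 of the 38 control was itself below the floor. Recovery was above the floor in 15 of them, and for these the excess over control can be read while the shortfall in model cannot.

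PTX3, a pentraxin of innate defence, had the largest excess among them, with 4.35 in control, 2.81 in model and 7.53 in recovery, at least 8.93-fold above control. SLC2A3, the high-affinity glucose transporter GLUT3, read 4.83, 3.58 and 7.56 as medians of 5 probes, and recovery was 6.65-fold above control on those medians. PDE4B, a phosphodiesterase that degrades cyclic AMP, read 3.59, 2.29 and 5.67, at least 2.45-fold above control. FAM189A2 read 5.0, 2.91 and 6.39. PPARA, a receptor that drives fatty acid oxidation, read 3.86, 2.60 and 5.40 as medians of 5 probes. Recovery was at least 2.04-fold above control on those medians. The median of the probes' own unfloored ratios was lower, at 1.77-fold, so 2.04 is no bound for the single probes.

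The cytokine IL10, at 2.71, 0.80 and 4.17, the antimicrobial peptide CAMP, at 3.14, 1.79 and 3.97, and the endothelin EDN2, at 1.98, 0.94 and 3.24, stayed below the floor on all 3 arrays, so no fold is given. ETS1, a transcription factor of endothelial and lymphoid cells, had medians of 6.17, 5.13 and 6.46 over 5 probes. All 3 medians were above the floor, the model one close to it. ETS1 stayed outside the set because no probe of it met both thresholds.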
